A study of Homo sapiens with 6 samples.

Results

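The genes described here are 10 of the 35410 genes with counts from the SEM libraries. They were chosen by name as genes of the myeloid lineage, with earlier results of these data known. MPO, AZU1, LYZ and SRGN stand for the granules and MS4A3, FCGR2A, CD33 and CSF2RB for the cell surface. CEBPA and CEBPB are transcription factor genes. SEM is a leukemia cell line of B cell precursor type that carries the KMT2A::AFF1 fusion. SEM::mock was transfected with an empty vector and SEM::EGR3 with a vector for the zinc finger factor EGR3. Both lines carried a doxycycline-inducible construct and received 1 µg/mL doxycycline for 48 h before RNA extraction, so doxycycline was present in the controls as well. Each line gave 3 biological replicates, and each group is 1 engineered line. A difference caused by EGR3 and any other difference between the lines cannot be told apart. Polyadenylated RNA was counted at its 3′ ends (MACE-Seq), so that gene length has little weight in a count.

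Granulocytes and monocytes arise from progenitors in which CEBP factors switch on the genes for granule proteins and cytokine receptors. CEBPA opens the granulocyte and monocyte programme, and CEBPB acts later and under inflammatory demand. Primary granules store enzymes and antimicrobial proteins such as myeloperoxidase, azurocidin and lysozyme, packed on the proteoglycan serglycin. Committed B cell precursors normally keep these genes low, while lymphoblasts with KMT2A fusions are known for carrying some myeloid antigens.

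Total counts ranged from 5286115 to 6181388 in SEM::mock and from 7293092 to 15106018 in SEM::EGR3. Levels are CPM, the share of a library's counts on a common scale, adjusted with edgeR's TMM factors, and 3 counts in a library were taken as the detection limit, which corresponds to 0.538 CPM in SEM::mock and 0.308 CPM in SEM::EGR3. EGR3 itself had 6 to 10 counts in SEM::mock and 4952 to 9768 in SEM::EGR3, with mean levels of 1.42 and 634 CPM. Of the proB markers, PAX5, EBF1, CD79A and IGLL1 were at the detection limit in SEM::mock and between 50.2 and 202 CPM in SEM::EGR3, so the labelled proB identity was not borne out by these genes in the control line. CD24, another gene of that list, went the other way, from 143 ± 11.2 to 23.4 ± 0.528 CPM (SD, n = 3; edgeR adjusted p = 5.51e-20), and made up most of the list's sum in SEM::mock. Over the whole list of 14 proB markers, 10 were at the limit in SEM::mock and 3 in SEM::EGR3, and the summed level ranged from 134 to 158 CPM and from 496 to 527 CPM. Several globin genes were high in both lines and moved in both directions, with HBG2 at 2333 and 945 CPM, HBA1 at 513 and 1491 CPM and HBA2 at 212 and 1076 CPM, while HBB had at most 2 counts in any library. The 8 erythroid and megakaryocyte markers counted here summed to 3283 to 3449.5 CPM in SEM::mock and 3637 to 3746 CPM in SEM::EGR3. The part of this lineage difference in the values below was not tested. Whether the libraries labelled SEM::mock and SEM::EGR3 come from the same parent line, and from that line alone, was not tested either, so each fold below is a difference between libraries with these labels.

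Of the 10 genes, 8 were counted highly enough to be tested, and edgeR's quasi-likelihood test called all 8 at an adjusted p under 0.05, against 68.5% of the 15465 tested genes. SRGN and CSF2RB passed the filter on low counts only through the SEM::EGR3 libraries, where they were high. With at least 10 counts required in every library, 6 of the 10 genes were tested and all 6 called, against 8481 of 12801 genes. CEBPA, CEBPB, CSF2RB and SRGN were higher in SEM::EGR3, as were 36.5% of all tested genes, and MS4A3, FCGR2A, LYZ and CD33 were lower, as were 32.0%. Granule genes and surface genes each held members of both directions, while both CEBP genes were higher. With a log2 fold change of at least 1 as a further requirement, 3 of the 8 were higher, against 16.7% of all tested genes, and 4 were lower, against 8.50%. The replicates of the lines did not overlap for 7 of the 8 genes, and those of CEBPB did, while 70.1% of all tested genes did not overlap. Of these 7 genes 3 were higher, against 37.5% of all tested genes, and 4 were lower, against 32.6%. The median absolute log2 fold change was 3.13 over the 8 genes and 0.46 over all tested genes. The median signed log2 fold change was -0.58 and 0.03. The genes were chosen with earlier results of these data known, so these shares and medians do not test the set.

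**Figure D1:**
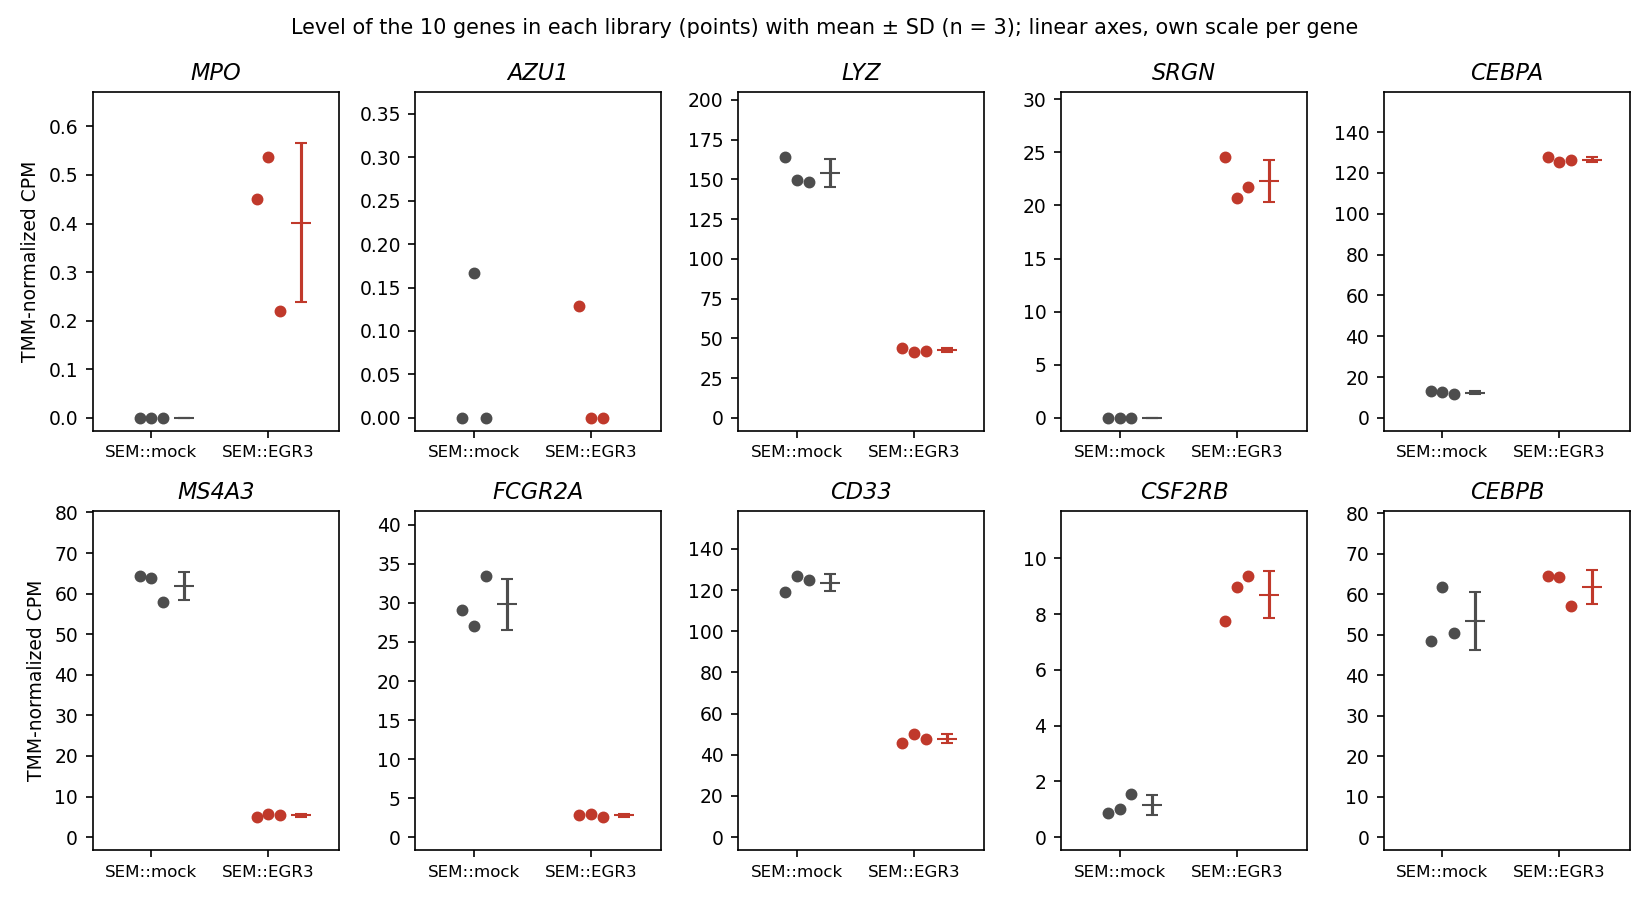
Level of each of the 10 genes in TMM-normalized CPM (vertical axis, its own linear scale for each gene) in the 3 SEM::mock libraries (grey points) and the 3 SEM::EGR3 libraries (red points), with the mean ± SD beside them except for AZU1, which is at the detection limit. The SEM::EGR3 libraries lie above all SEM::mock libraries for SRGN, CEBPA and CSF2RB and below them for MS4A3, FCGR2A, LYZ and CD33, while those of CEBPB overlap.

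The promoters of CEBPA, MS4A3 and FCGR2A are shown because their genes had the largest differences among the genes with a window in the promoter table used. Each is the 250 bases before a RefSeq gene start on GRCh38.p14, read 5′ to 3′ on the strand of the gene. The gene positions given below come from another annotation, and by them the end of each of these windows lies inside the gene. The same holds for the MS4A3 match nearest to the RefSeq start. In the CEBPA window (chr19:33302535-33302784, minus strand) the capitals mark GNGGGCG, the core letters of the site that EGR proteins recognise, which can overlap the GC box GGGCGG of the SP factors. In the MS4A3 window (chr11:60056415-60056664, plus strand) they mark TTNCNNAA, part of the palindrome bound by CEBP factors. In the FCGR2A window (chr1:161505207-161505456, plus strand) they mark 1 match to TTNCNNAA and 1 match to GAGGAAG, a core of the sites of ETS factors such as SPI1.
CEBPA: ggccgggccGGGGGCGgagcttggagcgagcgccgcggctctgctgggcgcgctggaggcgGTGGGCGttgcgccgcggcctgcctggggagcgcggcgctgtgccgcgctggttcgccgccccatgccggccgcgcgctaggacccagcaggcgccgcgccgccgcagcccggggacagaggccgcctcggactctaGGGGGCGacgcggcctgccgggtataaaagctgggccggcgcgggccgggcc
MS4A3: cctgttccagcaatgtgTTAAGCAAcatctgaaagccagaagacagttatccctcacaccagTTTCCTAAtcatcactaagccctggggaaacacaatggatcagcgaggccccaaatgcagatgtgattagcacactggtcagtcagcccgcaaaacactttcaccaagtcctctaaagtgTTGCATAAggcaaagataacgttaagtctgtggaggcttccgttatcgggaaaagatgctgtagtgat
FCGR2A: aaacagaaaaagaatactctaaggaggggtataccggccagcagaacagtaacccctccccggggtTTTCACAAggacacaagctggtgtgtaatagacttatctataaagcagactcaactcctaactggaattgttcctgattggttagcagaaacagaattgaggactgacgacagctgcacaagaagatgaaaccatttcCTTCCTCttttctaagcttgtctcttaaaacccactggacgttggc
Both strands were searched, and no match overlapped another. The CEBPA window held 3 matches to GNGGGCG at 46 to 52, 183 to 189 and 235 to 241 bases before the start, and 81.2% of its bases were G or C. At least 1 such match stood in 37.4% of the 35116 windows searched. The MS4A3 window held 3 matches to TTNCNNAA, at 61 to 68, 181 to 188 and 226 to 233 bases before the start, and 33.2% of all windows held at least 1. The FCGR2A window held its CEBP match 177 to 184 and its GAGGAAG match 40 to 46 bases before the start, the latter on the opposite strand, and 11.2% of all windows held a GAGGAAG. Neither MS4A3 nor FCGR2A held a GNGGGCG in its window. Among the other genes with a window, CD33 held 1 GAGGAAG at 5 to 11 bases before the start, AZU1 held 1 TTNCNNAA, and CEBPB, which has 2 RefSeq starts, held 4 GNGGGCG before the one and 1 before the other. These matches describe the letters of the windows. Binding was not measured in these libraries.

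SRGN and LYZ, the measured granule genes, moved in opposite directions. SRGN (ENSG00000122862, chromosome 10 from 69088106 to 69104811, plus strand) encodes serglycin, the proteoglycan core on which granule proteases are stored. Its counts were 0, 0 and 0 in SEM::mock and 382, 154 and 197 in SEM::EGR3, or 24.5, 20.7 and 21.7 CPM. All SEM::EGR3 libraries therefore stood clear of a control line without a single read. The SEM::EGR3 mean was 22.3 ± 2.01 CPM (SD, n = 3), which exceeds the SEM::mock detection limit of 0.538 CPM 41.4-fold, so that expression was higher by at least that factor (edgeR adjusted p = 2.16e-15). SRGN had the largest rise among the 10 genes, although a fold change without a control count gives only a lower bound.

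LYZ (ENSG00000090382, chromosome 12 from 69348341 to 69354234, plus strand) encodes lysozyme, which cleaves the peptidoglycan of bacterial walls. It had 932, 896 and 760 counts in SEM::mock, or 164, 149 and 148 CPM, and was the most abundant of the 10 genes there. In SEM::EGR3 it had 686, 310 and 382 counts, or 44.1, 41.6 and 42.0 CPM. Every SEM::EGR3 library was far below every control library. The mean fell from 154 ± 8.72 to 42.6 ± 1.32 CPM (SD, n = 3), a 3.60-fold difference with a log2 fold change of -1.85 (SE 0.06, edgeR adjusted p = 3.87e-18). LYZ moved from the 92.1st to the 69.4th percentile of level among the tested genes, so it stayed in the upper part of the distribution. An antisense transcript, AC020656.1, overlaps LYZ and had 8 to 17 counts in SEM::mock and 2 to 14 in SEM::EGR3. How the counting treated strand is not given in the sources used here, but these counts are small beside those of LYZ.

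MPO and AZU1, the genes most specific to primary granules, were close to absent in both lines. MPO (ENSG00000005381, chromosome 17 from 58269856 to 58280935, minus strand), which encodes the peroxidase that makes hypochlorous acid, had 0 counts in every SEM::mock library and 7, 4 and 2 counts in SEM::EGR3. Its SEM::EGR3 mean of 0.402 ± 0.164 CPM (SD, n = 3) lies under the limit that 3 counts set in SEM::mock, so no fold is given. Without the filter on low counts, edgeR gave MPO an adjusted p of 0.0138. AZU1 (ENSG00000172232, chromosome 19 from 825097 to 832018, plus strand), which encodes the antimicrobial protein azurocidin, had 1 count in SEM::mock replicate 2 and 2 counts in SEM::EGR3 replicate 1. It had 0 counts in the other libraries, and a difference was not detectable at this depth (edgeR adjusted p = 0.986 without the filter).

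Of a list of 21 primary granule proteins and factors of granule handling, 17 had counts here and 9 were tested. Of these 9, including SRGN and LYZ, 3 were higher and 6 lower in SEM::EGR3, against 36.5% and 32.0% of all tested genes. Without the filter on low counts 5 were higher, and with at least 10 counts required in every library 1 was, while 6 were lower in each. Their median log2 fold change was -0.72, and that of all tested genes was 0.03. PRTN3, the serine protease proteinase 3, was higher with a log2 fold change of 1.44 (SE 0.39, edgeR adjusted p = 0.00199), at levels of only 0.652 ± 0.0604 and 1.82 ± 0.140 CPM. PRSS57, another serine protease of granules, rose from 3.73 ± 0.693 to 7.90 ± 1.37 CPM (edgeR adjusted p = 0.000162). Complement factor D (CFD) fell from 32.6 ± 3.86 to 9.36 ± 0.395 CPM (edgeR adjusted p = 5.28e-13). SERPINB1, an inhibitor of neutrophil serine proteases, fell from 76.2 ± 1.38 to 27.4 ± 0.731 CPM, and RAB27A, a GTPase of granule docking, fell from 133 ± 4.64 to 59.3 ± 2.17 CPM. The most abundant of the list was CD63, a membrane protein of lysosomes and granules, at 1180 ± 22.3 and 718 ± 27.0 CPM. CTSG, BPI and DEFA4, which are specific to primary granules, were not tested. BPI and DEFA4 had at most 1 count in any library. CTSG had 0 counts in every SEM::mock library and 6 to 11 in SEM::EGR3, which is at least 1.69-fold higher. Of 12 proteins of secondary and tertiary granules, 11 had counts, and 1 was tested, the gelatinase gene MMP9, which was at the limit in SEM::mock and reached 7.50 ± 1.17 CPM in SEM::EGR3, at least 13.9-fold higher. The others of that list, among them LTF, CAMP and MMP8, were untested in both lines.

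MS4A3 and FCGR2A had the largest decreases of the 10 genes and stood near the lower end of all tested genes. MS4A3 (ENSG00000149516, chromosome 11 from 60056587 to 60071128, plus strand), shown above with its promoter, encodes a membrane-spanning protein that marks granulocyte and monocyte progenitors. It had 365, 382 and 297 counts in SEM::mock, or 64.2, 63.7 and 58.0 CPM. In SEM::EGR3 it had 79, 43 and 49 counts, or 5.07, 5.77 and 5.39 CPM. The lines were widely separated, and the spread within SEM::EGR3 was under 1 CPM. The mean fell from 62.0 ± 3.46 to 5.41 ± 0.347 CPM (SD, n = 3), which is 11.6-fold, with a log2 fold change of -3.54 (SE 0.10, edgeR adjusted p = 1.32e-19). The gene went from the 78.1st to the 23.2nd percentile of level. Only 4 of the 15465 tested genes had a lower log2 fold change than MS4A3, and 24 had one of -3 or below while 977 had one of 3 or above.

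FCGR2A (ENSG00000143226, chromosome 1 from 161505430 to 161524013, plus strand) encodes an activating receptor for the Fc part of IgG. It had 165, 162 and 171 counts in SEM::mock, or 29.04, 27.03 and 33.4 CPM, and 45, 22 and 23 counts in SEM::EGR3, or 2.89, 2.95 and 2.53 CPM. No SEM::EGR3 library reached 3 CPM, while no control library was below 27 CPM. Its mean went from 29.8 ± 3.26 to 2.79 ± 0.227 CPM (SD, n = 3), a log2 fold change of -3.40 (SE 0.15, edgeR adjusted p = 2.78e-16) and the 9th lowest of all tested genes. FCGR2C, which lies 57326 bp away and is nearly identical in sequence over much of its length, fell by 3.49 on the log2 scale. The ratio of FCGR2A to FCGR2C counts was 5.59 to 7.13 in SEM::mock and 5.75 to 7.50 in SEM::EGR3. The ranges overlap, and reads of these genes can be assigned to either copy, so the value of FCGR2C, and to a lesser degree that of FCGR2A, is uncertain.

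Few relatives of these receptors could be tested. Of 11 Fc receptors and signal chain genes, 3 were tested and all 3 were lower, against 32.0% of all tested genes, but these are FCGR2A itself, FCGR2C and 1 gene of separate sequence, FCGRT, the neonatal Fc receptor. FCGRT was at 17.3 ± 1.88 and 3.48 ± 0.180 CPM (log2 fold change -2.30, SE 0.16, edgeR adjusted p = 2.74e-12). FCER1G, whose product carries the signal of several Fc receptors, was untested, with 0 to 3 counts in SEM::mock and 1 to 6 in SEM::EGR3. Of 8 MS4A family genes, 6 had counts and 2 were tested. Both, MS4A3 itself included, were lower, against 32.0% of all tested genes. The second, MS4A4A, a family member of macrophages, fell from 13.7 ± 0.344 to 1.33 ± 0.382 CPM. MS4A1, untested, went the other way, with 0 counts in every SEM::mock library and 2 to 9 in SEM::EGR3. Without the filter on low counts 1 family gene was called higher. With at least 10 counts required in every library 1 was called lower. The ratio of MS4A3 to MS4A4A counts was 4.37 to 4.62 in SEM::mock and 3.06 to 4.94 in SEM::EGR3, so the pair kept a like proportion within the spread of the libraries.

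CD33 (ENSG00000105383, chromosome 19 from 51225064 to 51243860, plus strand), a lectin that binds sialic acid and carries inhibitory motifs, is the antigen by which myeloid leukemia is commonly recognised. It had 676, 759 and 640 counts in SEM::mock, or 119, 127 and 125 CPM. In SEM::EGR3 it had 713, 374 and 433 counts, or 45.8, 50.2 and 47.7 CPM. The raw count of SEM::EGR3 replicate 1 lay within the control range because that library was the deepest, but on the CPM scale the lines did not overlap. The mean fell from 124 ± 4.03 to 47.9 ± 2.19 CPM (SD, n = 3), which is 2.59-fold (log2 fold change -1.37, SE 0.06, edgeR adjusted p = 1.15e-15). CD33 remained at the 72.5th percentile of level in SEM::EGR3, the smallest decrease among the 4 genes that fell.

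Among 13 SIGLEC family genes, the lectin family of CD33, 5 were tested. Of these 2 were higher and 3 lower, against 36.5% and 32.0% of all tested genes. The higher genes, CD22 and SIGLEC10, passed the filter on low counts only through the SEM::EGR3 libraries. With at least 10 counts required in every library 0 were higher and 2 lower. CD22, the inhibitory SIGLEC of B cells, was at the limit in SEM::mock and at 23.6 ± 2.27 CPM in SEM::EGR3, at least 43.8-fold higher. SIGLEC10, also found on B cells, rose from 1.47 ± 0.480 to 8.81 ± 1.67 CPM. SIGLEC6 fell from 5.60 ± 0.430 to 0.610 ± 0.323 CPM, and SIGLEC14 from 5.20 ± 1.40 to 2.00 ± 0.439 CPM. CD33 thus fell beside SIGLEC6 and SIGLEC14, and whether direction goes with the cell type of these genes was not tested.

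CSF2RB (ENSG00000100368, chromosome 22 from 36913628 to 36940449, plus strand) was the only one of the 4 surface genes to rise. It encodes the beta chain shared by the receptors for IL-3, IL-5 and GM-CSF, which signals through JAK2 and STAT5. It had 5, 6 and 8 counts in SEM::mock, or 0.880, 1.00 and 1.56 CPM, and 121, 67 and 85 counts in SEM::EGR3, or 7.77, 8.99 and 9.36 CPM. All 3 SEM::EGR3 libraries were above all controls, which held only a handful of reads each. The mean rose from 1.15 ± 0.364 to 8.71 ± 0.829 CPM (SD, n = 3), 7.49-fold with a log2 fold change of 2.90 (SE 0.26, edgeR adjusted p = 4.81e-10). The low control counts make this the least precise of the estimates with a control value, with a 95% interval from 2.36 to 3.45 on the log2 scale.

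The alpha chains that pair with CSF2RB were all too low to be tested. CSF2RA, the GM-CSF binding chain, averaged 0.114 CPM in SEM::mock and 0.0814 CPM in SEM::EGR3, and IL5RA 0.887 and 0.688 CPM. IL3RA, the IL-3 binding chain, had no counts in SEM::mock and 8 to 15 counts in SEM::EGR3, or 1.19 ± 0.307 CPM, which is at least 2.22-fold higher. Of the 8 genes of the signal path below the beta chain, STAT5A fell from 176 ± 5.12 to 54.8 ± 4.31 CPM and STAT5B from 73.2 ± 1.21 to 35.1 ± 2.06 CPM. In all, 4 of the 8 were lower, against 32.0% of all tested genes. PTPN6, the phosphatase SHP1, was the only one higher, with 0.865 ± 0.581 CPM in SEM::mock and 132 ± 2.64 CPM in SEM::EGR3. CISH, a target gene of STAT5, was at 103 ± 1.84 and 108 ± 1.91 CPM and did not pass the test (edgeR adjusted p = 0.273). Of 11 cytokine receptors of myeloid cells, CSF2RB among them, 7 were tested. Of these, 2 were higher, 3 lower and 2 not called, against 36.5% higher and 32.0% lower of all tested genes. Without the filter on low counts 4 were higher, and with at least 10 counts required in every library 0 were. The higher genes, CSF2RB and FLT3, passed the filter only through the SEM::EGR3 libraries. FLT3, a receptor kinase of progenitors, went from 0.319 ± 0.410 to 318 ± 10.1 CPM, and the stem cell factor receptor KIT fell from 15.6 ± 0.509 to 6.55 ± 0.334 CPM. CSF3R, the G-CSF receptor, was at 4.77 ± 0.781 and 3.16 ± 0.768 CPM and did not pass (edgeR adjusted p = 0.0536).

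CEBPA had the smallest adjusted p of the 10 genes. The gene (ENSG00000245848, chromosome 19 from 33299934 to 33302564, minus strand), whose promoter is printed above, had 74, 75 and 59 counts in SEM::mock, or 13.0, 12.5 and 11.5 CPM. It had 1988, 934 and 1147 counts in SEM::EGR3, or 128, 125 and 126 CPM. The replicates of each line lay close together after scaling, and the lines were far apart. The mean rose from 12.4 ± 0.762 to 126 ± 1.21 CPM (SD, n = 3), 10.2-fold with a log2 fold change of 3.35 (SE 0.08, edgeR adjusted p = 3.67e-21). CEBPA passed from the 40.9th to the 90.6th percentile of level and became the most abundant of the 10 genes, with 39.1% to 40.4% of their summed level in SEM::EGR3 against 2.69% to 2.97% in SEM::mock.

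CEBPB (ENSG00000172216, chromosome 20 from 50190734 to 50192689, plus strand) differed little. It had 275, 370 and 258 counts in SEM::mock, or 48.4, 61.7 and 50.4 CPM, and 1003, 479 and 518 counts in SEM::EGR3, or 64.4, 64.3 and 57.0 CPM. SEM::mock replicate 2 lay above SEM::EGR3 replicate 3, so the lines overlapped. The means were 53.5 ± 7.19 and 61.9 ± 4.23 CPM (SD, n = 3), a 1.16-fold difference with a log2 fold change of 0.21 (SE 0.08, 95% interval 0.04 to 0.38, edgeR adjusted p = 0.0282). The call did not hold with DESeq2 (adjusted p = 0.0762) or in edgeR without SEM::mock replicate 1 (0.12, adjusted p = 0.238), SEM::mock replicate 3 (0.15, adjusted p = 0.162), SEM::EGR3 replicate 1 (0.18, adjusted p = 0.107) or SEM::EGR3 replicate 2 (0.19, adjusted p = 0.0508). CEBPB counts were 3.72 to 4.93 times those of CEBPA in SEM::mock and 0.452 to 0.513 times in SEM::EGR3, so the order of the pair turned. An antisense transcript that overlaps the gene, CEBPB-AS1, had 5 to 10 counts in SEM::mock and 108 to 192 in SEM::EGR3, a log2 fold change of 3.38 (SE 0.25, edgeR adjusted p = 8.45e-12). CEBPB counts exceeded those of CEBPB-AS1 by 37.0 to 51.6 times in SEM::mock and 4.06 to 5.22 times in SEM::EGR3. Without knowledge of the strand setting, reads of this pair cannot be told apart.

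The other tested genes of the CEBP family list differed less than CEBPA. CEBPG, which lacks an activation domain, was higher by 0.26 on the log2 scale (SE 0.08, edgeR adjusted p = 0.00385), at 46.8 ± 1.69 and 55.7 ± 4.41 CPM. DDIT3, the stress factor CHOP that pairs with CEBP proteins, was higher by 0.44 (SE 0.07, edgeR adjusted p = 2.98e-06). CEBPD was at 13.4 ± 0.716 and 12.01 ± 0.355 CPM and did not pass (edgeR adjusted p = 0.251). CEBPE, the factor of late granulocytes, was untested at 0.649 and 0.180 CPM. In all, 4 of the 5 tested genes of this family list were higher, CEBPB with its unstable call among them, and none was lower, against 36.5% and 32.0% of all tested genes. With a log2 fold change of 1 required, CEBPA alone was called.

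All 11 listed myeloid transcription factors outside the CEBP family were tested and called, against 68.5% of all tested genes, 4 higher and 7 lower, with a median log2 fold change of -0.40. With a log2 fold change of 1 required, 4 were higher and 4 lower. Of all tested genes 36.5% were higher and 32.0% lower, and 16.7% and 8.50% with that requirement. IRF8 and FLI1 passed the filter on low counts only through the SEM::EGR3 libraries. With at least 10 counts required in every library 2 were higher and 7 lower. SPI1 (PU.1), which works with CEBPA on many myeloid promoters, fell from 68.6 ± 5.30 to 23.7 ± 1.43 CPM (log2 fold change -1.52, SE 0.08, edgeR adjusted p = 1.85e-14). GFI1, a repressor of granulocyte progenitors, rose from 6.13 ± 1.14 to 34.0 ± 3.32 CPM, and RUNX1, a core factor of blood progenitors, from 60.9 ± 1.47 to 156 ± 5.79 CPM. IRF8, a factor of monocytes and B cells, had no counts in SEM::mock and rose by at least 21.3-fold, and the ETS factor FLI1 by at least 16.0-fold. LMO2, MYB and ETV6, factors of blood progenitors, fell by 1.77, 1.04 and 1.10 on the log2 scale. CEBPA and SPI1 moved in opposite directions between the lines.

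**Figure D2:**
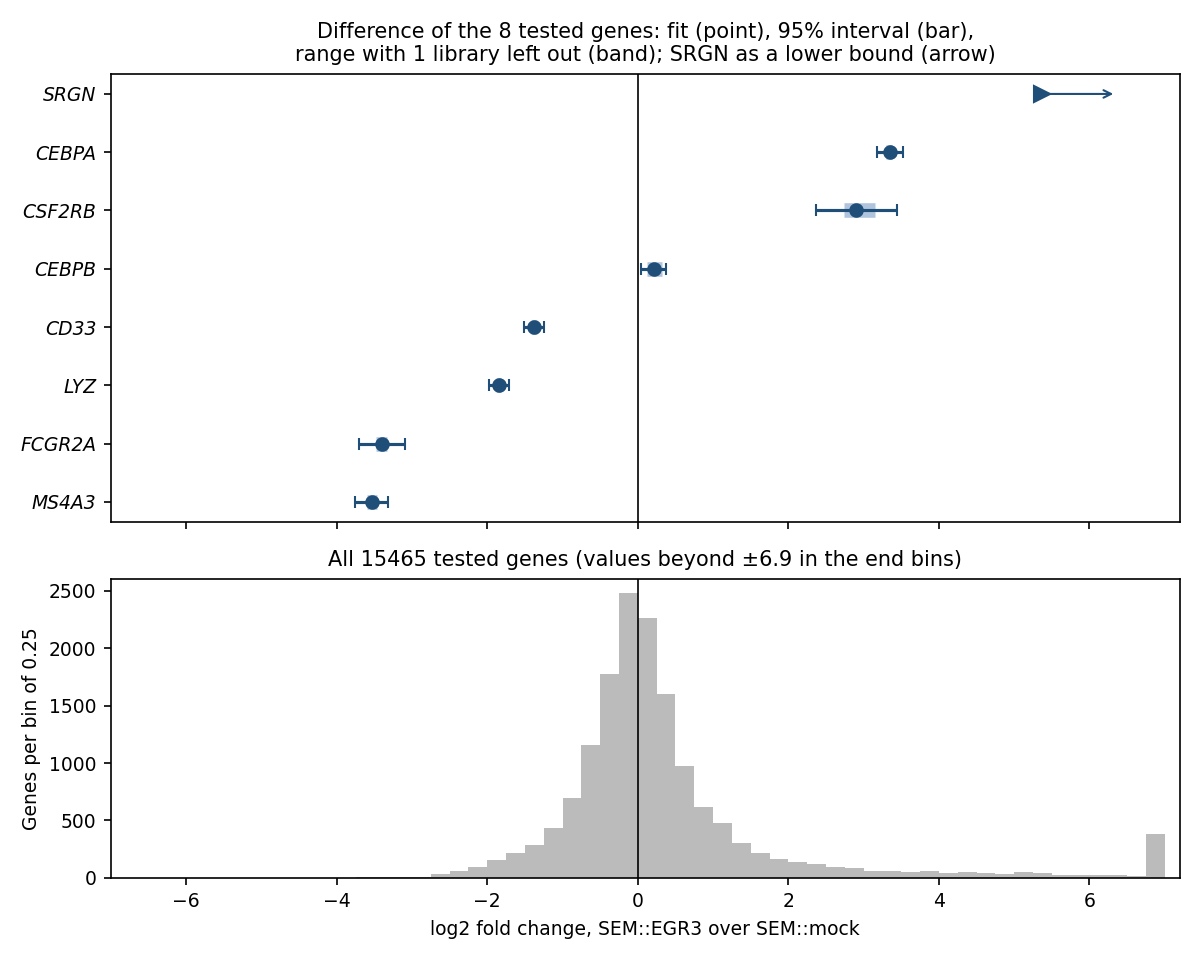
Top, log2 fold change of SEM::EGR3 over SEM::mock (horizontal axis) for the 8 tested genes, with the fit (point), its 95% interval (bar) and the range with any 1 library left out (pale band). SRGN is drawn as an arrow from its lower bound. Bottom, the number of all 15465 tested genes per bin of log2 fold change. CEBPB lies near 0, and MS4A3 and FCGR2A, at -3.54 and -3.40, lie at the left end of the distribution.

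The order of levels differed between the lines. In SEM::mock it ran from LYZ, CD33, MS4A3, CEBPB, FCGR2A and CEBPA to CSF2RB, and only MS4A3 and CEBPB had overlapping libraries among these neighbours. AZU1, MPO and SRGN were at the limit. In SEM::EGR3 it ran from CEBPA, CEBPB, CD33, LYZ, SRGN, CSF2RB and MS4A3 to FCGR2A, with no overlap between neighbours, and MPO and AZU1 came last. The levels of the 10 genes summed to 436 ± 7.22 CPM in SEM::mock and 318 ± 5.57 CPM in SEM::EGR3 (SD, n = 3). LYZ and CD33 together with MS4A3 made up most of the sum in the control line, and CEBPA with CEBPB most of it in SEM::EGR3.

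Surface and secreted markers of mature monocytes and granulocytes ranged from no counts to well counted. Of a list of 21 such genes, 17 had counts and 7 were tested. Of these 3 were higher and 2 lower, against 36.5% and 32.0% of all tested genes. With at least 10 counts required in every library 2 were higher and 1 lower, and without the filter on low counts 4 and 5. ITGB2, the beta chain of the leukocyte integrins, went from 1.18 ± 1.01 to 164 ± 5.53 CPM, and its alpha chains ITGAM and ITGAX rose from 4.07 ± 0.536 to 13.1 ± 1.26 CPM and from 1.12 ± 0.294 to 2.51 ± 0.401 CPM. TLR2, a receptor for bacterial lipoproteins, fell from 2.21 ± 0.304 to 0.416 ± 0.0925 CPM. CD68, a lysosomal protein of macrophages, fell from 30.7 ± 1.93 to 16.1 ± 1.46 CPM, and ANPEP, the antigen CD13, and FUT4, an enzyme that makes the antigen CD15, were at 19.3 and 22.4 CPM and at 28.2 and 24.6 CPM and did not pass the test. CD14, S100A8, S100A9 and TYROBP, also on the list, averaged between 0.0556 and 1.10 CPM in SEM::mock and between 0 and 0.256 CPM in SEM::EGR3. Summed over the list, the level was 87.8 to 93.4 CPM in SEM::mock and 237 to 250 CPM in SEM::EGR3, of which ITGB2 was the greater part in the latter. Markers of T and NK cells, tested for 4 of 10 genes, were split as well, with CD3D at 57.9 and 6.24 CPM and TRAC at 1.20 and 74.4 CPM.

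**Figure D3:**
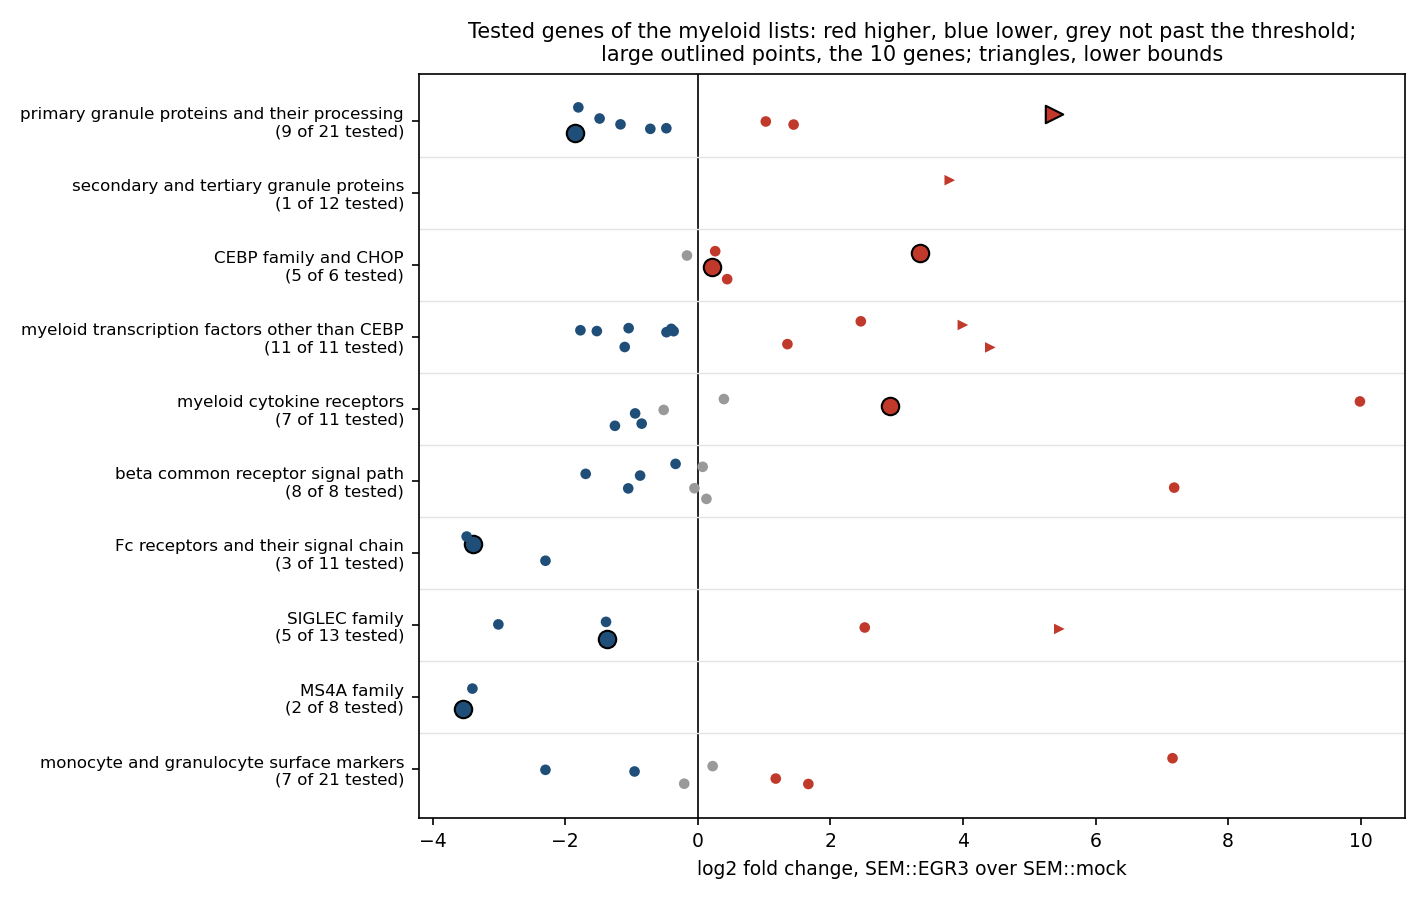
Log2 fold change of SEM::EGR3 over SEM::mock (horizontal axis) for the tested genes of each myeloid list (rows), red where higher, blue where lower and grey where the test was not passed. Large outlined points are genes of the 10 described, and triangles are lower bounds for genes at the limit in SEM::mock. All tested Fc receptor and MS4A genes lie to the left of 0, and most other lists hold genes on both sides.

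Genes near the 10 loci were examined for changes in the same direction. Within 100 kb there were 118 annotated genes, of which 78 had counts and 34 were tested, with 14 higher, 14 lower and 6 not called. That is 82.4% called, against 68.5% of all tested genes. Beside CSF2RB, NCF4, which encodes a subunit of the phagocyte NADPH oxidase and lies 35613 bp away, rose from 2.86 to 89.0 CPM (log2 fold change 4.92, SE 0.13, edgeR adjusted p = 1.25e-20). PVALB and TST, also within 100 kb of CSF2RB, were higher too, by at least 13.4-fold and by 1.49 on the log2 scale. MPST, 79186 bp from CSF2RB, was lower (log2 fold change -0.26, edgeR adjusted p = 0.00294). Of the 4 tested genes around CSF2RB 3 were thus higher and 1 lower, against 36.5% and 32.0% of all tested genes. CEBPA-DT, transcribed away from CEBPA from 293 bp beyond its start, had 2 to 7 counts in SEM::mock and 29 to 49 in SEM::EGR3 (log2 fold change 1.94, SE 0.35, edgeR adjusted p = 2.63e-05). AC008738.2, a noncoding gene 2472 bp from CEBPA, had 2 to 4 and 21 to 31 counts. Of the 4 tested genes around CEBPA 3 were higher and 1 lower. Around CD33, SIGLEC17P and VSIG10L fell by 1.47 and 1.92 on the log2 scale.

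Around AZU1, PRTN3 was higher while PLPPR3 and CFD were lower, with log2 fold changes of 1.44, -2.91 and -1.80. TSPOAP1, 20293 bp from MPO, rose from 1.04 to 8.41 CPM, and KIF1BP, 44562 bp from SRGN, from 5.05 to 10.3 CPM. The difference of KIF1BP was small beside that of SRGN. Near LYZ 2 genes were tested, of which 1 was higher and 1 was not called, and near MS4A3 no gene had enough counts to be tested.

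**Figure D4:**
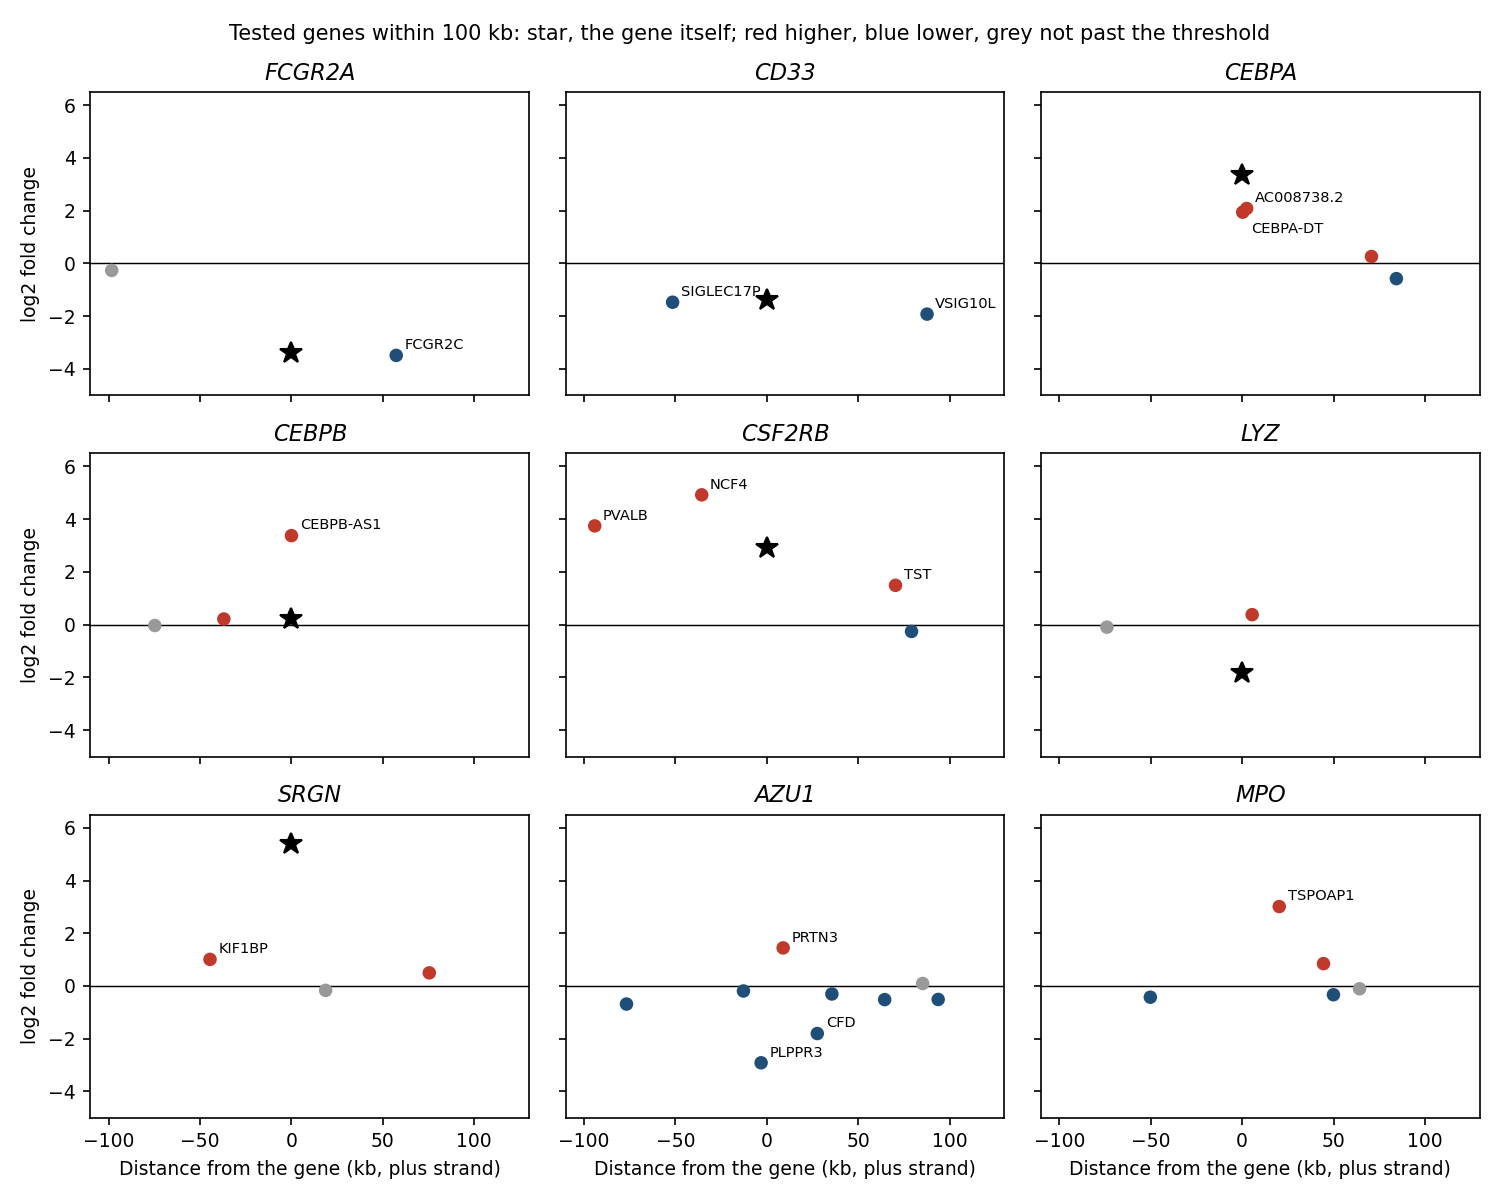
Log2 fold change (vertical axis) of the tested genes within 100 kb of 9 of the 10 genes against the distance from the gene in kb along the plus strand (horizontal axis). The star is the gene itself, absent for the untested MPO and AZU1, and red, blue and grey points are higher, lower and not called. PVALB and SRGN are drawn at their lower bounds. CSF2RB has 3 higher neighbours and 1 lower, and CEBPB, near 0, lies under CEBPB-AS1 at 3.38.

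For each tested gene, the genes outside the set with the most similar pattern were found by the Euclidean distance of centred log2 levels over the 6 libraries. MS4A3 and FCGR2A shared both nearest genes, DHRS3, a retinal reductase (distances 0.387 and 0.294), and CD3D (0.421 and 0.307). The log2 fold changes of DHRS3 and CD3D were -3.36 and -3.25, beside -3.54 for MS4A3 and -3.40 for FCGR2A. CEBPA was nearest to IVD, a dehydrogenase of leucine breakdown (0.0798), and CSF2RB to MTUS1 (0.234). LYZ was nearest to CA8 (0.0751), CD33 to FAM83A (0.0650), SRGN to CDIP1 (0.0920) and CEBPB to NPIPA2 (0.114). With 2 lines and 6 libraries this measure mainly orders genes by their difference between the lines.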

How the data were processed

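The deposited table holds raw read counts per gene for 3 SEM::mock and 3 SEM::EGR3 MACE-Seq libraries, whose headings spell EGR3 as ERG3. The submitters' processing notes name bcl2fastq, Bowtie2, HTSeq and GRCh38; the annotation, strand setting and use of molecular identifiers are not given in the sources used here. The authors' log2 fold change, p-value and FDR columns and 12 further per-sample value columns were not used. Counts were tested with edgeR 4.0.16 in R 4.3.3 (quasi-likelihood test, filterByExpr, TMM factors), with Benjamini-Hochberg adjustment over 15465 genes and a threshold of 0.05. The members and lists were chosen with earlier results of these data known. Named were all 10 members, the called genes of each list with a log2 fold change of 1 or more in size (at most the 4 highest in level), likewise genes within 100 kb, the 2 nearest genes in pattern (of genes with a mean of 10 counts, pseudocount 0.5 CPM), and EGR3; other genes in the text were chosen after their values were seen. Positions are from GENCODE 29 (GRCh38), which matched 97.0% of gene identifiers, and promoters from RefSeq. Alternatives were DESeq2 1.42.0, other or no scaling, no filter, a minimum of 10 counts in every library, a fold threshold, a replicate block and leaving out each library. The test was checked on simulated counts. Intervals and limits cover counting error or the spread between these libraries only. A marker gene of the erythroid list is not reported here.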

Additional observations from a re-analysis of the deposited data

How the results depend on the processing

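The direction of all 8 tested genes was the same in every alternative that could be fitted, and only CEBPB lost its call, in 5 of 13 (log2 fold change from 0.12 to 0.32 with 1 library left out). The number of the 10 genes called higher fell from 4 to 2 with at least 10 counts required in every library, since SRGN and CSF2RB then were not tested. It was 5 without the filter on low counts, where MPO was called, and 3 with DESeq2 and with the fold threshold. With 1 library left out it ranged from 3 to 4, while the number called lower was 4 throughout. Over all genes, 10593 calls became 3896 when a log2 fold change of 1 or more in size was required, and 9938 to 10499 with 1 library left out. A replicate block gave 10082 calls and 8 of the genes called; same-numbered libraries did not deviate together (correlations -0.121, -0.0768 and -0.0388), so the numbers were not taken as pairs. Without scaling factors the share of higher genes among the calls was 59.2% against 53.2%. Depth limits MPO and AZU1 in both lines and the control values of CSF2RB and SRGN.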
